A study of Mus musculus with 4 samples.

Results

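Galectins are lectins that bind beta-galactoside sugars on glycoproteins, inside cells and outside them. Lgals1, Lgals3, Lgals8 and Lgals9 encode 4 of them, and Lgals3bp encodes a secreted glycoprotein that galectin-3 binds and that is not itself a galectin. These 5 genes, of 31053 in each RNA matrix, were followed in leukocytes of the mouse left ventricle, and were found as the rows whose gene name equals a member's name. They were chosen with their change between the 2 treatments known, so that change is described here with each mouse's value. Calls from a fit over all genes are given beside it as background and are not evidence for the members.

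The study compared hearts of 4 sham mice with hearts of 4 mice given DOCA-salt, all of the genotype C57Bl6J, with no engineered allele named. DOCA is deoxycorticosterone acetate, a mineralocorticoid that raises blood pressure when it is combined with salt, and the study's title places the work in hypertensive heart failure. Dose, duration, age and sex are not given in the sources used here. Left ventricles were flushed, minced and digested, leukocytes were enriched on magnetic beads against CD45, marked with a hashtag antibody for each mouse and with surface antibodies, pooled within a treatment and sorted as live CD45+ cells for 5′ single-cell RNA-seq. Each treatment is therefore 1 library, and an effect of treatment and an effect of the library cannot be told apart. The mouse, read from its hashtag, is the replicate, and its number does not pair a sham with a DOCA-salt mouse.

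After filtering, 4080 sham cells (624 to 1281 a mouse) and 6864 DOCA-salt cells (764 to 2172 a mouse) were used, with medians of 2811.5 and 3228 RNA molecules (UMIs) a cell. The libraries shared 41 cell barcodes, 0.941% of those of the sham library. Clustering without the 5 genes and without Lyz2 gave 5429 B-like, 1793 NK-like, 1361 T-like, 829 macrophage-like, 231 nonclassical monocyte-like, 167 neutrophil-like, 165 classical monocyte-like and 150 cDC2-like cells, named from marker genes. The cDC2-like cells were a cluster of 136 led by Cd209a and a cluster of 14 led by Fscn1. The Fscn1-led cells were all from DOCA-salt mice and were named on 3 of 7 markers. Of 819 cells left without a name, 657 formed a cluster led by Cbr2 and Folr2 that held markers of both B cells and macrophages. Ptprc, which encodes the CD45 used in the sort, averaged 1415 CPM (sham) and 1280 CPM (DOCA-salt) in NK-like cells, where CPM are the UMIs of a gene scaled to a fixed total of UMIs of that class and mouse.

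Galectin-3 is the chimera-type galectin, with 1 sugar-binding domain and a tail through which it self-associates, and is best known in this tissue as a macrophage product linked to fibrosis. Galectin-1 forms dimers and is made by activated lymphocytes among other cells. Galectin-8 and galectin-9 carry a pair of linked sugar-binding domains. Galectin-8 marks damaged endosomes and lysosomes for autophagy, and galectin-9 is known as a ligand of Tim-3, the product of Havcr2. Galectin-9 and Lgals3bp are also known as interferon-responsive genes.

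In GENCODE M21 (GRCm38) Lgals1 (ENSMUSG00000068220) spans chr15:78926725-78930465 on the forward strand and Lgals3 (ENSMUSG00000050335) chr14:47367751-47386160 on the forward strand. Lgals3bp (ENSMUSG00000033880) spans chr11:118392751-118402092 on the reverse strand, Lgals9 (ENSMUSG00000001123) chr11:78962974-78984946 on the reverse strand and Lgals8 (ENSMUSG00000057554) chr13:12439415-12464944 on the reverse strand. Lgals8 overlaps Heatr1, which lies on the other strand, and whether the counting used strand is not given in the sources used here, so reads of that overlap could be shared. The other members overlap no annotated gene. Each member's UMIs are summed over the whole gene, so exons, introns and UTRs are not separated.

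The promoter windows of Lgals3bp and Lgals9 are shown because these are the members known to answer interferon. Lgals9 was also high in a small B-like cluster led by interferon-stimulated genes, described further on. Lgals3bp was higher there in 4 of 6 mice and was found in few cells. Each window is 300 bases of RefSeq GRCm38.p6, from 250 bases before the gene's RefSeq start to 50 after it, written 5′ to 3′ on the gene's strand. Capitals mark matches to GAAANNGAAA or GAAANNNGAAA on either strand, the spaced repeat that interferon regulatory factors are known to bind. The Lgals3bp window is chr11:118401910-118402209 (reverse strand) and that of Lgals9 is chr11:78984875-78985174 (reverse strand). The RefSeq start used lies inside the GENCODE gene given above, by 133 bases for Lgals3bp, 22 for Lgals9, 6109 for Lgals3 and 3206 for Lgals8.
Lgals3bp: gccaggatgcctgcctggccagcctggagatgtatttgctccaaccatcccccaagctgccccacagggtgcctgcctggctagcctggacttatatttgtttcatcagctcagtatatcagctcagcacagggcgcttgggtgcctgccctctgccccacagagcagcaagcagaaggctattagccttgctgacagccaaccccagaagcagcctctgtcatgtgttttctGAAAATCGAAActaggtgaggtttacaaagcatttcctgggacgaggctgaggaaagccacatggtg
Lgals9: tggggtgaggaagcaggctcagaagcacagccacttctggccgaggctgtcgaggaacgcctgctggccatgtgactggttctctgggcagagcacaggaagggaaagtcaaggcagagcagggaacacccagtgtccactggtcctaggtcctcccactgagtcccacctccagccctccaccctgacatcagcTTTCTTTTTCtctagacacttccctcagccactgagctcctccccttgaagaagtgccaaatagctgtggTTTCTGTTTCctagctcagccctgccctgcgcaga
Lgals3bp held 1 match, at bases -17 to -7, counted from the RefSeq start base as 0 and inside the GENCODE gene, and Lgals9 held 2 matches to GAAANNGAAA on the opposite strand, at -55 to -46 and 15 to 24. The windows of Lgals3 and Lgals8 held none, and Lgals1 has no window in the table used. Of all 32851 windows 3.44% held GAAANNGAAA, 2.75% held GAAANNNGAAA and 5.99% held either. A match is a run of letters and not evidence of binding.

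Each gene had its own order of classes. The following means are over all mice with at least 10 cells of a class, and levels are compared between classes of 1 gene only. Lgals3 was highest in classical monocyte-like cells, at 2373 ± 519 CPM (SD, n = 5 mice), followed without overlap between the mice by cDC2-like cells at 1007 ± 440 (n = 4). Nonclassical monocyte-like (825 ± 222, n = 8), neutrophil-like (539 ± 84.3, n = 4) and macrophage-like cells (521 ± 246, n = 8) came next, each overlapping its neighbour. The 4 neutrophil-like values are all from DOCA-salt mice, and part of this order turned among the DOCA-salt mice alone. There nonclassical monocyte-like cells (999 ± 156, n = 4) stood above cDC2-like cells (873 ± 429, n = 3), and macrophage-like cells (649 ± 229.9, n = 4) above neutrophil-like cells, again with overlap. The cDC2-like class of DOCA-salt mice included the Fscn1-led cells, with 103 CPM when pooled, against 1016 in the Cd209a-led cells. T-like, NK-like and B-like cells were at the foot of the order, at 79.1 ± 27.6, 52.1 ± 32.5 and 28.7 ± 11.3 CPM (n = 8 each). Lgals1 was instead highest in NK-like cells, at 2400 ± 168 CPM, and in the unnamed cluster led by Cd163l1 and Tcrg-V6, genes of gamma-delta T cells. That cluster held 2401 ± 567 CPM (n = 3, all DOCA-salt mice), and the values overlapped. T-like cells at 848 ± 271 CPM lay below NK-like cells in 8 of 8 mice without overlap, and nonclassical monocyte-like cells at 104 ± 34.0, B-like cells at 53.1 ± 11.8 and neutrophil-like cells at 32.6 ± 14.9 were lowest.

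The binding partner Lgals3bp was highest in the Cd163l1-led cluster (457 ± 155 CPM, n = 3, all DOCA-salt mice). Macrophage-like cells came next (215 ± 51.0, n = 8), and the mice of these 2 classes did not overlap. Among the DOCA-salt mice alone macrophage-like cells held 204 ± 68.5 CPM (n = 4), also without overlap. NK-like cells followed at 67.3 ± 7.91 CPM, and B-like cells were lowest at 5.47 ± 2.002. The tandem-repeat galectins ranged less. Lgals9 ran from 219 ± 18.7 CPM in NK-like cells to 52.3 ± 37.6 in nonclassical monocyte-like cells, and each class between them overlapped its neighbour. Lgals8 was the 1 member highest in B-like cells, at 55.5 ± 10.1 CPM, where macrophage-like cells at 53.1 ± 16.6 did not differ beyond their spread. Its lowest value was 8.43 ± 7.41 CPM in cDC2-like cells (n = 4).

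**Figure D1:**
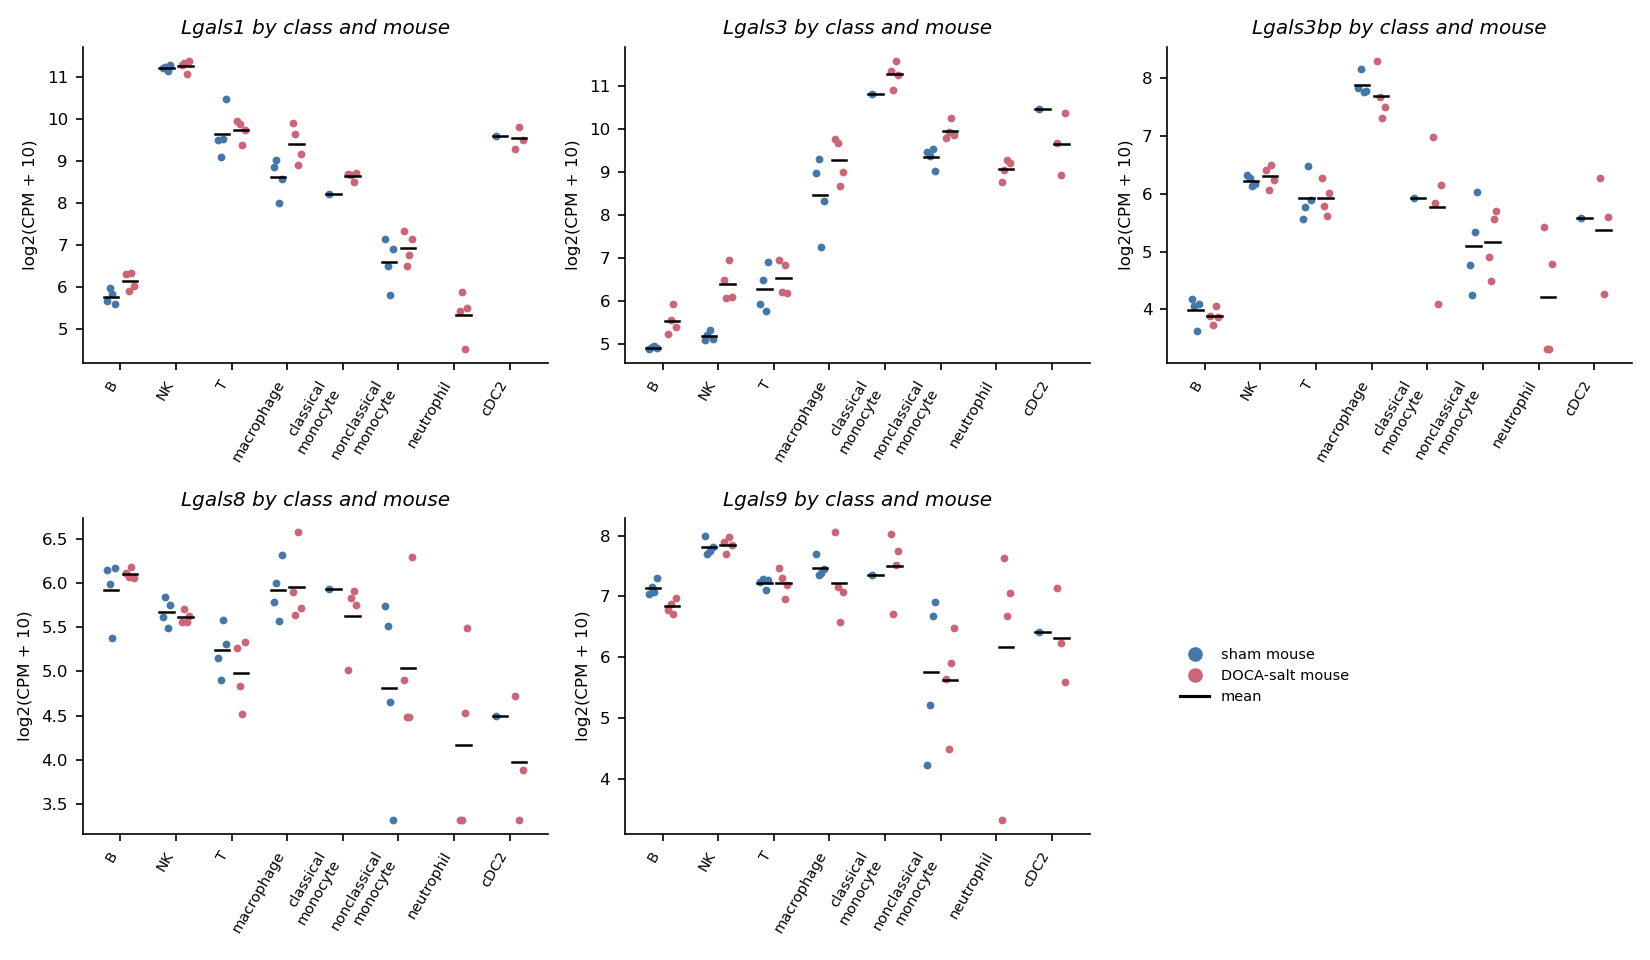
Level of each gene as log2(CPM + 10) on the vertical axis in 8 leukocyte classes, with 1 point per mouse (sham blue, DOCA-salt red) and a bar at the mean; only mice with at least 10 cells of a class are drawn, which leaves no sham neutrophil-like and 1 sham point in the classical monocyte-like and cDC2-like classes. Lgals1 stands highest in NK-like cells and Lgals3 in classical monocyte-like cells, where the mean over mice is 2373 CPM.

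Lgals3, the galectin with the largest difference between treatments, was higher in DOCA-salt mice in B-like, NK-like and nonclassical monocyte-like cells without overlap of the mice. In NK-like cells it was 24.3, 27.0, 30.0 and 25.0 CPM in the sham mice and 80.2, 57.1, 115 and 58.7 CPM in the DOCA-salt mice. Every DOCA-salt mouse was above every sham mouse, and the log2 change was 1.36 (SE 0.23). In B-like cells it was 19.8, 20.4, 21.2 and 19.98 CPM against 27.8, 37.0, 51.6 and 32.1, again without overlap and with a log2 change of 0.79 (SE 0.18). The sham mice of this class lay close together (SD 0.613), and the DOCA-salt mice spread more (SD 10.4). In nonclassical monocyte-like cells it was 703, 654, 734 and 514 CPM against 879, 968, 1227 and 924, a log2 change of 0.59 (SE 0.16) with all 4 DOCA-salt mice above the sham mice. That direction depended on how the class was formed: when the 2 libraries were clustered apart, the log2 change in it was -0.36.

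Macrophage-like cells, the class of resident phagocytes marked by C1qa and Mrc1, varied more between mice. Lgals3 was 496, 626, 144 and 311 CPM in sham mice and 874, 812, 404 and 505 CPM in DOCA-salt animals, so that 2 DOCA-salt mice lay above all sham mice and the groups overlapped (log2 change 0.71, SE 0.32). Classical monocyte-like cells gave 1799, 2286, 2241 and 2505 against 2632, 1922, 3061 and 2450 CPM, which overlap (log2 change 0.18, SE 0.17), and this class held 27 sham cells, 3 of them from sham mouse 3. T-like cells gave 51.3, 79.8, 45.0 and 111 against 114, 63.8, 105 and 62.9 CPM, a log2 change of 0.16 (SE 0.25) with overlapping groups. In neutrophil-like cells the 4 sham mice had 5 Lgals3 UMIs in 13 cells, too few to set beside the 428 to 619 CPM of the DOCA-salt mice.

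**Figure D2:**
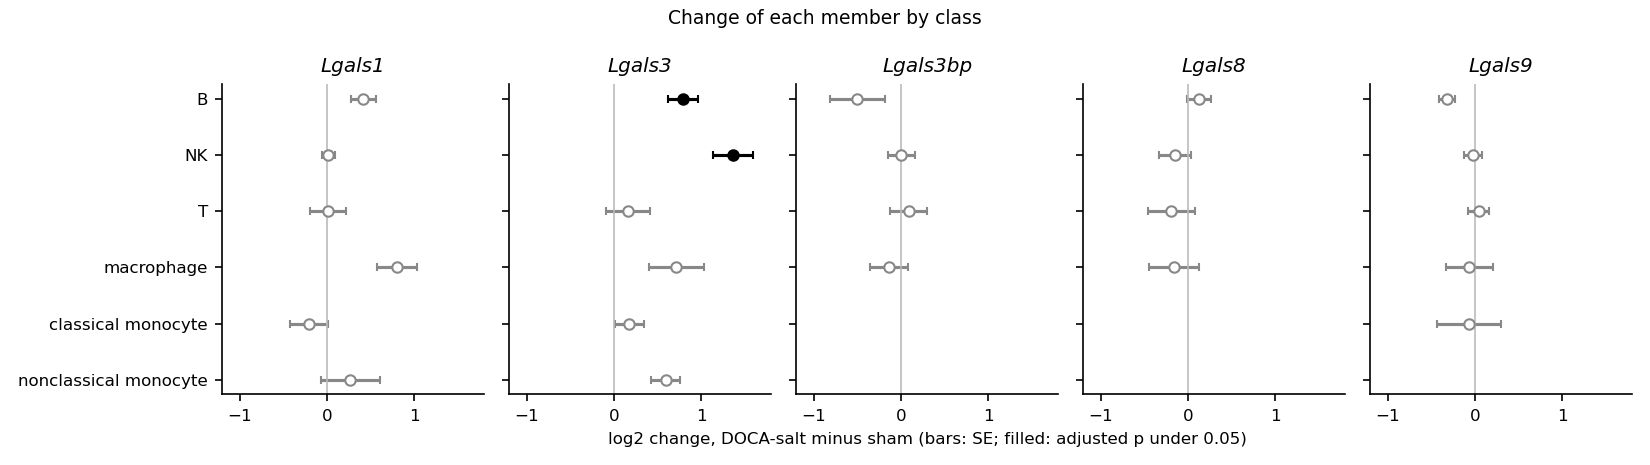
Log2 change of each gene, DOCA-salt minus sham, on the horizontal axis in 6 classes with its standard error; filled points passed an adjusted p of 0.05 over all genes of the class, and a missing point means that the gene did not pass the low-count filter there. Lgals3 in NK-like (1.36) and B-like cells (0.79) are the filled points, in a contrast that was used to choose the genes.

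The counts over all genes give the background for these values, with a threshold of 0.05 on the Benjamini-Hochberg adjusted p of edgeR's quasi-likelihood test. In B-like cells 1 of 5 members (Lgals3) passed, beside 1.93% of the 8776 genes tested, and 2 of 5 did not overlap between the groups (Lgals3 and Lgals9), beside 8.23%. In NK-like cells 1 of 5 passed (Lgals3), beside 0.995% of 6531 genes, and that 1 did not overlap, beside 5.88%. In T-like cells 0 of 5 passed and 0 did not overlap, beside 0.377% and 5.52% of 6628 genes. In macrophage-like cells the counts were 0 and 0 of 5, beside 0.317% and 6.15% of 4421 genes. In classical monocyte-like cells 3 members passed the low-count filter, of which 0 passed the threshold and 0 did not overlap, beside 0.0631% and 4.92% of 1586 genes. In nonclassical monocyte-like cells 2 members passed the filter, of which 0 passed the threshold and 1 (Lgals3) did not overlap, beside 1.83% and 7.31% of 1696 genes. The rule used this contrast, so nothing is read from these counts. The count in B-like cells fell to 0 when sham mouse 1, 2, 3 or 4 or DOCA-salt mouse 2 or 4 was left out. Over all fits that left out 1 mouse the log2 change of Lgals3 there ran from 0.68 to 0.92. The count also fell to 0 when each library was clustered on its own (0.29). It fell to 0 as well when lymphocytes with a UMI of the macrophage genes C1qa, C1qb, C1qc or Apoe were left out (0.74). With classes set from surface antibodies, a setting added after the data were seen, the log2 changes in B-like cells were 0.73 for Lgals3 and 0.66 for Lgals1. The 1 member counted there was then Lgals1 and not Lgals3, and nothing is read from this count either. In NK-like cells the count fell to 0 with classes set from surface antibodies (Lgals3 log2 change 0.64).

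Lymphocytes hold some RNA of myeloid genes that can come from broken cells in the suspension, so Lgals3 was set beside Lyz2, the lysozyme gene of macrophages, monocytes and neutrophils. In B-like cells Lyz2 was 176, 182, 174 and 159 CPM in sham animals and 337, 271, 321 and 252 CPM in DOCA-salt animals, a rise of 0.77 on the log2 scale (SE 0.10, adjusted p = 0.000734). In NK-like cells Lyz2 was 141, 131, 185 and 190 against 383, 223, 322 and 294 CPM (log2 change 0.85, SE 0.14, adjusted p = 0.00134). Lyz2 was thus higher by a similar factor as Lgals3 in B-like cells, while in NK-like cells the Lgals3 change of 1.36 was the larger of the 2. Apoe, an apolipoprotein gene of macrophages, rose in the same 2 classes, by 0.71 in B-like (adjusted p = 0.00159) and by 0.99 in NK-like cells (adjusted p = 0.00206). The part of such RNA in the Lgals3 change was not tested.

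The ratio of Lgals3 to Lyz2 UMIs was compared between classes of the same mouse, a comparison named when the genes were chosen. The ratio of free RNA itself was not measured, and B-like cells serve only as the reference class. Both monocyte-like classes held lower pooled ratios than B-like cells, from 6.44 to 7.92 Lgals3 per 100 Lyz2 UMIs. A difference from B-like cells therefore does not separate free RNA from a cell's own, and the source was not tested. B-like cells held 11.2, 11.2, 12.2 and 12.6 Lgals3 UMIs per 100 Lyz2 UMIs in sham and 8.26, 13.7, 16.1 and 12.7 in DOCA-salt mice, which is 11.7 in both libraries when pooled. NK-like cells held 17.2, 20.7, 16.2 and 13.1 in sham and 20.9, 25.6, 35.6 and 20 in DOCA-salt mice, above the B-like cells of the same mouse in 8 of 8 mice. The mean difference was 0.75 on the log2 scale (SD 0.41), a factor of 1.69, with an exact two-sided sign-flip permutation p of 0.00781, the smallest 8 mice can give (adjusted over 3 comparisons 0.00781). It was 0.50 in the sham and 1.01 in the DOCA-salt mice, where 4 mice cannot give an exact p below 0.125. With classes set from surface antibodies the difference was 0.25 and did not pass (exact permutation, adjusted p = 0.0781, against 0.00781 to 0.0156 under 8 other alternatives).

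T-like cells held 20.6, 25.9, 19.1 and 59.3 Lgals3 UMIs per 100 Lyz2 UMIs in sham and 33.4, 29.9, 53.6 and 32.5 in DOCA-salt mice. They lay above the B-like cells of the same mouse in 8 of 8 mice, by 1.401 on the log2 scale (SD 0.55), a factor of 2.64 (exact permutation p = 0.00781, adjusted 0.00781). The difference was 1.24 within sham and 1.56 within DOCA-salt mice. Macrophage-like cells, where both genes are transcribed, held the lowest ratios, 3.96, 5.40, 1.45 and 2.09 in sham and 7.04, 5.98, 2.53 and 2.95 in DOCA-salt mice. These were below the B-like cells in 8 of 8 mice, 3.49-fold lower (log2 difference -1.80, SD 0.97, exact permutation p = 0.00781, adjusted 0.00781), and by -2.05 within sham and -1.55 within DOCA-salt mice.

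The excess of Lgals3 over Lyz2 in T-like cells sat in 1 cluster of 420 cells, led by Cxcr3, Cxcr6 and Gzmk, genes of antigen-experienced T cells. It held 93.2 Lgals3 per 100 Lyz2 UMIs (43.8 to 391 by mouse), against 8.67 in the cluster led by Ly6c1, Igfbp4 and Cd4 and 8.25 in that led by Cd8b1 and Cd8a. Outside the Cxcr3-led cluster the T-like ratio was below that of B-like cells, by -0.61 on the log2 scale, and did not pass (exact permutation, adjusted p = 0.0547, against 0.00781 to 0.0156 under 9 other alternatives). That subset was chosen after the values were seen, so leaving the cluster out lowers the ratio by design, and nothing is read from this p. Lgals3 itself was 199 ± 104 CPM in the cluster and 22.8 ± 11.8 in the other T-like cells (SD, n = 8 mice), 8.73-fold higher and higher in 8 of 8 mice. Lyz2 was 204 ± 74.8 CPM in the cluster and 261 ± 63.9 in the rest, and higher in the cluster in 1 of 8 mice. The cluster was 24.1% ± 2.41 of the T-like cells in sham and 32.1% ± 7.64 in DOCA-salt mice (SD, n = 4 each).

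The level in a class can also be set against the level in its whole library, pooled over all cells. Lgals3 in B-like cells was 15.6% of the library level in sham and 10.7% in DOCA-salt, and in NK-like cells 19.9% and 20.95%. The 8 myeloid transcripts read alongside (Lyz2, Apoe, C1qa, C1qb, C1qc, Cst3, Csf1r, Mrc1) had medians of 10.5% and 8.83% in B-like cells, over ranges of 4.68% to 39.6% and 5.23% to 26.6%. In NK-like cells their medians were 10.9% and 10.0%, with ranges of 7.50% to 21.4% and 5.13% to 14.9%. Lgals3 in B-like cells thus lay within the range of these transcripts in both libraries, below Cst3 and Apoe and above the rest. In NK-like cells of DOCA-salt mice it lay above the range. In NK-like cells of sham mice it lay below Cst3 alone (21.4%), with the next highest transcript, C1qb, at 12.25%. In the Cxcr3-led T-like cluster Lgals3 stood at 157% and 60.5% of the library level, above the ranges of the 8 transcripts there (0% to 20.03% and 3.41% to 12.3%).

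Shares of cells with a Lgals3 UMI rose from B-like to NK-like to macrophage-like cells, as the levels did. A Lgals3 UMI was found in 4.46% (exact 95% binomial interval 3.66 to 5.39%) of sham and 7.91% (6.99 to 8.92%) of DOCA-salt B-like cells, at medians of 2621 and 2899 UMIs a cell. In NK-like cells it was found in 8.13% (5.97 to 10.8%) and 17.1% (15.1 to 19.3%), at medians of 3231 and 3364 UMIs. Thinned to 1000 UMIs a cell, the shares were 1.48% and 3.004% in B-like and 2.47% and 7.10% in NK-like cells. In T-like cells the direction turned with thinning. Their Lgals3 share was 13.4% in sham and 17.6% in DOCA-salt as counted, at medians of 4257 and 5438 UMIs, and 7.43% and 5.22% thinned. Lyz2 was found in 30.7% and 53.0% of B-like and in 33.1% and 54.4% of NK-like cells. In macrophage-like cells the Lgals3 share was 32.8% (27.1 to 39.0%) and 56.1% (51.9 to 60.2%), and 16.3% and 32.8% after thinning. These intervals cover counting error only.

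**Figure D3:**
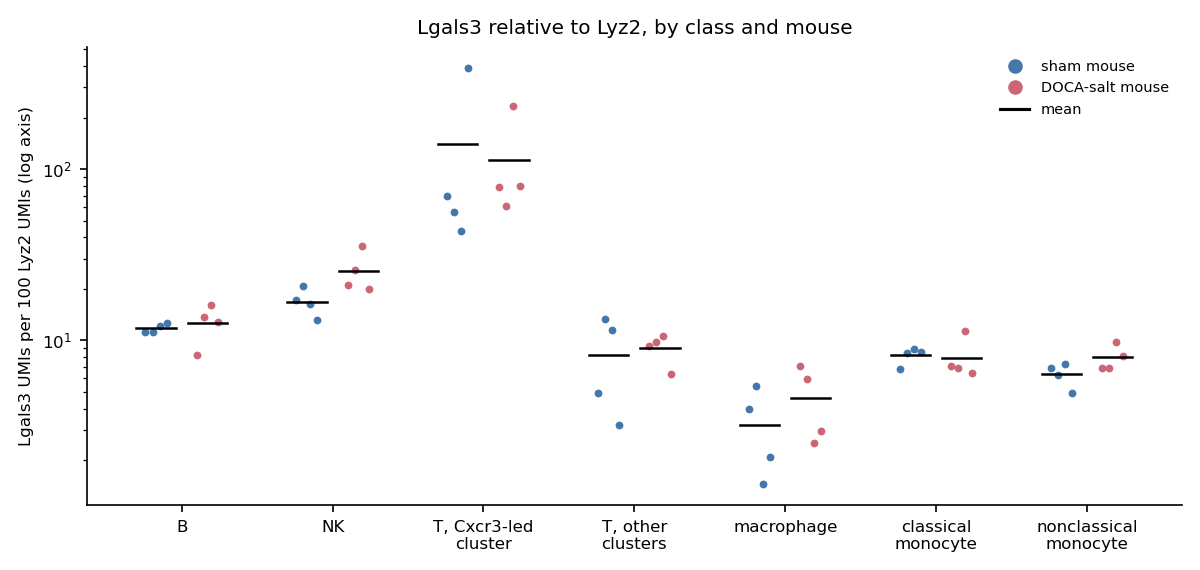
Lgals3 UMIs per 100 Lyz2 UMIs on a log axis, by class, with the T-like class split into the Cxcr3-led cluster and the other clusters; 1 point per mouse (sham blue, DOCA-salt red) and a bar at the mean. The Cxcr3-led cluster lies between 43.8 and 391, above every B-like and NK-like point, and the macrophage-like points are the lowest group.

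Within macrophage-like cells, 406 held a Lgals3 UMI and 423 did not. The cells with one were deeper (medians of 5206 and 2711 UMIs), so levels were compared as CPM within each of 8 mice. Genes of resident-type macrophages were lower in the cells with Lgals3: the mannose receptor gene Mrc1 by -1.18 on the log2(CPM + 10) scale, the haemoglobin scavenger receptor Cd163 by -1.49 and the chemokine Pf4 by -0.76, each lower in 8 of 8 mice. The growth factor receptor gene Csf1r was lower by -0.54 and Adgre1, which encodes F4/80, by -0.64, also in 8 of 8 mice. Genes of recruited monocytes had positive mean differences that were less uniform: the chemokine receptor Ccr2 by 1.19 (6 of 8 mice), Fn1 by 1.61 (7 of 8), Chil3 by 0.95, Plac8 by 1.204 and Ly6c2 by 0.74 (5 of 8 each). F13a1, from the same monocyte list, was lower by -0.89 in 8 of 8 mice. The median over 3038 genes of at least 50 CPM was -0.01.

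The other members did not all follow Lgals3 in those cells. Lgals9 differed by 0.29 (higher in 7 of 8 mice) and Lgals1 by 0.60 (6 of 8), while Lgals3bp differed by 0.02 (3 of 8) and Lgals8 by -0.52 (1 of 8). Trem2, the lipid receptor in the study's title and a reported partner of galectin-3, differed by 0.04 (4 of 8 mice). Lamp1, a lysosomal glycoprotein that galectin-3 binds, differed by -0.23 (0 of 8). A single UMI defines the split, so these values describe cells in which Lgals3 was caught and not cells that express it.

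An antibody against galectin-3 among the 16 surface antibodies gave a readout that the choice of genes did not use. Counts were taken as a centred log ratio over the surface antibodies of a cell (log2), and averaged per mouse. In macrophage-like cells it was -0.71, -0.63, -0.75 and -0.43 in sham and 0.46, -0.65, -0.24 and -0.25 in DOCA-salt mice. DOCA-salt mice 1, 3 and 4 lay above all sham mice, and the difference of 0.46 did not pass an exact permutation test (p = 0.0857, adjusted over 6 classes 0.514; the smallest p possible is 0.0286). The difference was 0.26 in classical monocyte-like cells (exact p = 0.343) and between -0.01 and 0.03 in the other 4 classes (exact p from 0.771 to 1, all adjusted p at 1).

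The place of the myeloid classes on this antibody depended on the scale. As raw counts macrophage-like cells had 88.6 UMIs a cell in sham (67.7 to 101 by mouse) and 122 in DOCA-salt mice (62.8 to 211), against 64.3 and 52.1 in B-like cells. As raw counts over the B-like cells of the same mouse the galectin-3 antibody was 1.73-fold higher in macrophage-like, 1.54-fold in nonclassical monocyte-like and 1.401-fold in classical monocyte-like cells, and 0.788-fold in NK-like cells, lower in 8 of 8 mice. On the centred log ratio the myeloid classes lay on the other side of B-like cells, by -0.39 in macrophage-like cells (lower in 7 of 8 mice), -0.37 in nonclassical monocyte-like cells (8 of 8) and -0.14 in classical monocyte-like cells (5 of 7). In the same macrophage-like cells, as raw counts, the antibodies against CD3 and the gamma-delta T-cell receptor, which macrophages lack, were 2.49-fold and 2.95-fold higher, and that against CD64, a macrophage Fc receptor, 7.90-fold. On that scale the galectin-3 antibody in macrophage-like cells thus stood no further above B-like cells than antibodies against T-cell proteins did.

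Cells with a Lgals3 UMI did not carry detectably more of the galectin-3 antibody than cells of their class without one. The log2 difference was -0.00 in macrophage-like cells (SD 0.25, 8 mice, exact permutation p = 0.977), 0.04 in nonclassical monocyte-like cells (SD 0.39, 7 mice, exact p = 0.828), -0.06 in NK-like cells (SD 0.23, 8 mice, exact p = 0.523) and -0.16 in T-like cells (SD 0.26, 8 mice, exact p = 0.102). Adjusted over these 4 comparisons the p-values were 0.977, 0.977, 0.977 and 0.406. The CD3 antibody, taken as a comparison, differed by -0.15 in macrophage-like cells (lower in 8 of 8 mice, exact permutation p = 0.00781) and by -0.73 in T-like cells (lower in 8 of 8).

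**Figure D4:**
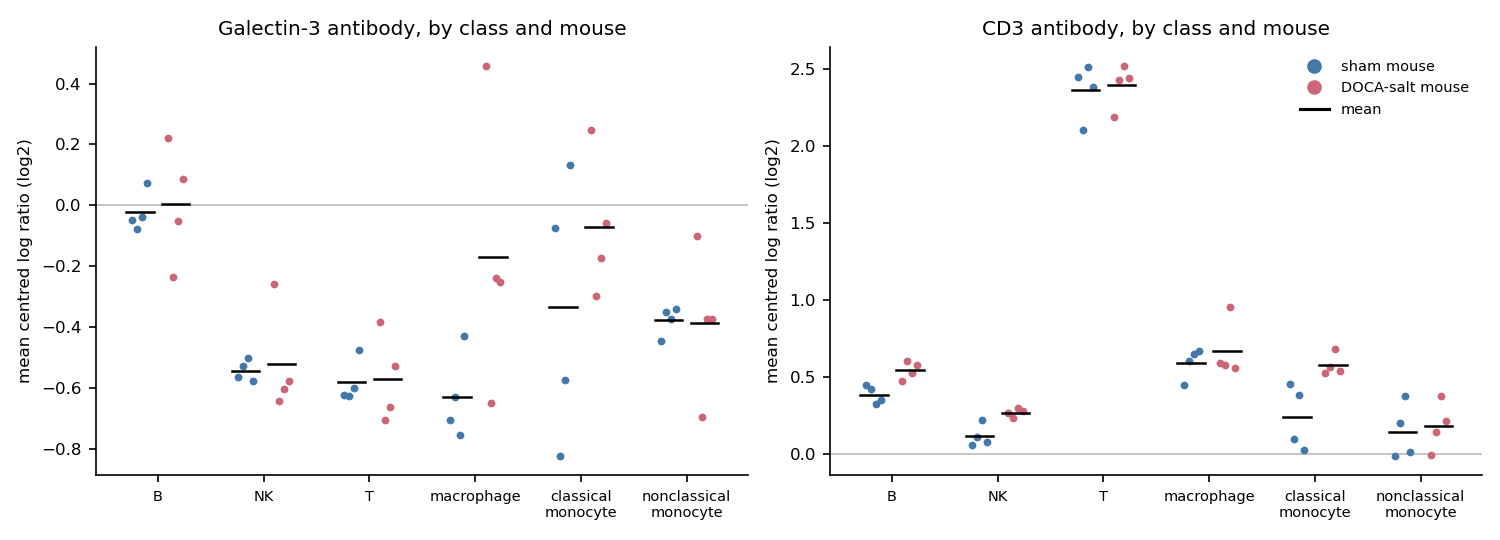
Mean centred log ratio (log2) of the galectin-3 antibody (left) and the CD3 antibody (right) on the vertical axis by class, with 1 point per mouse (sham blue, DOCA-salt red) and a bar at the mean. The CD3 antibody separates T-like cells from every other class; the galectin-3 antibody in macrophage-like cells lies below the B-like cells of the same mouse in 7 of 8 mice on this scale, and there 3 of 4 DOCA-salt points lie above the sham points.

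Lgals3bp, the secreted partner, differed little between treatments. In macrophage-like cells it was 216, 275, 206 and 210 CPM in sham animals and 303, 195, 148 and 170 CPM in DOCA-salt animals, so that 1 DOCA-salt mouse lay above all sham mice and 3 below (log2 change -0.14, SE 0.22). In NK-like cells it was 70.5, 67.5, 60 and 61.9 against 75.2, 57.1, 80.6 and 65.8 CPM (log2 change 0.00, SE 0.16). T-like cells gave 37.3, 44.4, 79.6 and 49.1 against 67.5, 45.3, 38.8 and 54.3 CPM (0.09, SE 0.21). In B-like cells it was near the level that a few UMIs give, with 39 UMIs over the 4 sham and 41 over the 4 DOCA-salt mice (log2 change -0.50, SE 0.32).

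Lgals1 was the most even of the members in the cells that held most of it. In NK-like cells it was 2358, 2378, 2220 and 2458 CPM in sham animals and 2488, 2556, 2119 and 2622 CPM in DOCA-salt animals (log2 change 0.02, SE 0.07), and 93.9% and 95.2% of the cells held a UMI. In macrophage-like cells it was 451, 511, 244 and 367 against 948, 788, 466 and 562 CPM. There 3 DOCA-salt mice lay above all sham mice and DOCA-salt mouse 3 lay among them (log2 change 0.81, SE 0.23). With macrophages set by the CD64 antibody the change was -0.06. In B-like cells Lgals1 was 40.9, 53.5, 47.0 and 38.8 against 69.2, 49.7, 70.7 and 55.2 CPM (0.42, SE 0.14), with 3 DOCA-salt mice above all sham mice. That was 7.39% of the library level in sham and 7.19% in DOCA-salt. Lgals1 stood at 390% and 306% of that level in NK-like and at 66.3% and 96.7% in macrophage-like cells. Its percent of the library level is therefore not a like measure to that of the 8 myeloid transcripts. Monocytes differed by -0.20 (classical, SE 0.21) and 0.27 (nonclassical, SE 0.33) with overlap, and both directions turned under alternatives. The classical value was 0.58 without mice of under 10 cells, 0.13 without a low-count filter, 0.0563 with a hashtag margin of 5 and 0.16 without sham mouse 2, and the nonclassical value was -1.096 with each library clustered on its own.

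In T-like cells the whole class and its parts gave different values for Lgals1. Over the class it was 717, 535, 724 and 1414 CPM in sham animals and 971, 932, 650 and 844 CPM in DOCA-salt animals (log2 change 0.01, SE 0.21), with sham mouse 4 the highest of all 8. The Cxcr3-led cluster held 2200 ± 660 CPM and the other T-like cells 177 ± 49.9 (n = 8 mice), 12.5-fold higher in the cluster and higher in 8 of 8 mice. Outside the cluster Lgals1 ranged from 97.7 to 183 CPM in sham animals and from 181 to 245 CPM in DOCA-salt animals, with a log2 change of 0.72. That subset was chosen after the values were seen. Lgals3bp (93.4 ± 36.2 against 31.3 ± 4.43 CPM) and Lgals9 (194 ± 16.8 against 114 ± 15.3) were also higher in the cluster in 8 of 8 mice, and Lgals8 (28.8 ± 15.9 against 23.0 ± 12.0) in 6 of 8.

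Lgals9 was lower in B-like cells of DOCA-salt mice. It was 122, 133, 125 and 148 CPM in sham animals and 100, 108, 94.2 and 116 CPM in DOCA-salt animals, all 4 below every sham mouse (log2 change -0.32, SE 0.10), which did not pass the threshold. NK-like cells, where it was highest, gave 246, 198, 205 and 214 against 228, 197, 242 and 220 CPM (-0.03, SE 0.11). T-like cells gave 140, 146, 128 and 143 against 167, 147, 114 and 135 CPM (0.04, SE 0.12). Macrophage-like cells gave 198, 153, 156 and 164 against 256, 133, 85.3 and 125 CPM, with 3 DOCA-salt mice below all sham mice and 1 above (-0.07, SE 0.27).

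B-like cells were a mixture of clusters that differed in Lgals9. A cluster of 299 cells led by Iglv1, Iglc1 and Sox4, genes of light-chain lambda and of immature B cells, held 199 ± 62.2 CPM against 113 ± 12.1 in the other B-like cells, higher in 6 of 7 mice. It was 10.4% ± 1.81 of B-like cells in sham and 1.65% ± 1.22 in DOCA-salt mice (SD, n = 4 each). Outside it, a subset chosen after the values were seen, the log2 change of Lgals9 was -0.21. The part of this shift in cells in the class value was not tested further.

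A cluster of 56 B-like cells led by Ifit3, Ifit3b, Ifit1, Oasl1 and Isg15, all interferon-stimulated genes, held more Lgals9 than any other B-like cluster. In the 6 mice with at least 5 such cells Lgals9 was 249 to 488 CPM (mean 368, SD 96.0) against 118 ± 18.1 in the other B-like cells, 3.12-fold higher and higher in 6 of 6 mice. A Lgals9 UMI was found in 66.1% of these cells and in 24.8% to 30.4% of the cells of the 3 largest B-like clusters. Lgals3bp was 57.5 ± 54.7 CPM against 5.20 ± 1.37, higher in 4 of 6 mice and 0 in DOCA-salt mice 1 and 2. A Lgals3bp UMI was found in 10.7% of the 56 cells, so its level there rests on few UMIs. Lgals3 (22.6 ± 48.1 against 26.2 ± 7.63 CPM) and Lgals1 (36.2 ± 57.0 against 51.3 ± 11.02) were higher in 1 and 2 of 6 mice. Lgals8 (77.9 ± 83.7 against 58.1 ± 3.81 CPM) was higher in 4 of 6 mice. The windows of Lgals9 and Lgals3bp shown above held a match to the interferon-factor repeat, and those of Lgals8 and Lgals3 held none. Among the 10 genes that lead the cluster 5 of the 9 with a window held a match (Ifi208, Ifit1, Ifit3, Ifit3b and Isg15), beside 5.99% of all windows. Whether the matches bear on these levels was not tested. The cluster was 0.903% ± 0.0510 of B-like cells in sham and 0.921% ± 0.868 in DOCA-salt mice.

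**Figure D5:**
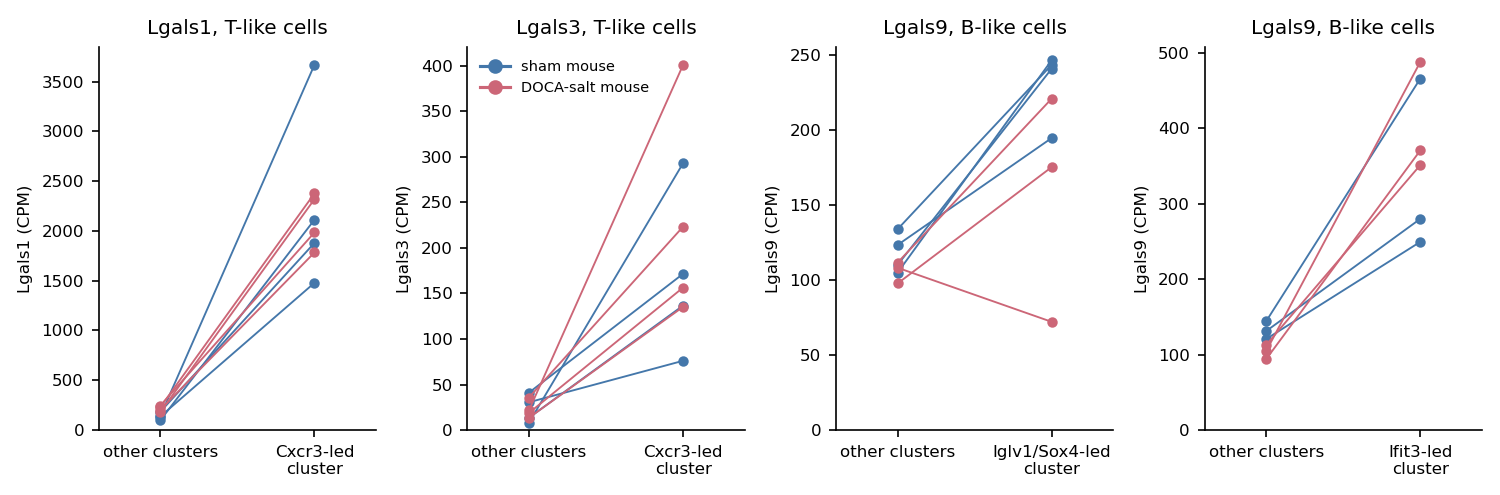
CPM on the vertical axis for each mouse in the other clusters of a class (left end of each line) and in 1 cluster (right end), sham blue and DOCA-salt red: Lgals1 and Lgals3 in the Cxcr3-led T-like cluster, and Lgals9 in the Iglv1, Iglc1 and Sox4-led and the Ifit3-led B-like clusters. Each line ends higher than it starts except that of 1 DOCA-salt mouse in the panel of the Iglv1, Iglc1 and Sox4-led cluster; mice with fewer than 5 cells in the cluster are not drawn.

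Lgals8, the galectin of damaged lysosomes, showed no separation between treatments in any class in which it passed the filter. In B-like cells it was 60.7, 53.5, 31.7 and 62.3 CPM in sham animals and 59.4, 57.1, 62.8 and 56.7 in DOCA-salt mice (log2 change 0.13, SE 0.14), with sham mouse 3 the lowest. NK-like cells gave 38.9, 47.3, 35.0 and 44.0 against 37.1, 42.0, 37.2 and 39.5 CPM (-0.15, SE 0.19). T-like cells ranged from 19.96 to 38.1 and from 12.9 to 30.3 CPM (-0.19, SE 0.27), and macrophage-like cells from 37.5 to 69.9 and from 39.9 to 85.3 CPM (-0.16, SE 0.29). In monocytes it did not pass the filter.

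The remaining galectin genes of the feature list were close to absent. Lgals4 had 56 UMIs over all cells used, Lgalsl 47, Lgals7 12, Grifin 12, Lgals2 2 and Lgals12 0, beside 1722 for Lgals8, the galectin with the fewest UMIs among the members, and 29735 for Lgals1. None of these 6 reached a test in any class.

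Genes around the galectins were read from 4 further lists in the same fit, written with earlier results of these data known. Of 15 glycoprotein partners, such as Ptprc, Cd44, Itgb1, Lamp1 and Trem2, 8 were tested in B-like, 10 in NK-like, 9 in T-like, 13 in macrophage-like, 7 in classical and 9 in nonclassical monocyte-like cells, and 0 passed in any class. Their medians ran from -0.10 in nonclassical monocyte-like to 0.13 in macrophage-like cells, beside medians of all genes tested from -0.01 to 0.01. The integrin gene Itgam, in macrophage-like cells, had the largest value there (44.8 and 84.6 CPM, log2 change 0.80, adjusted p = 0.316). The hyaluronan receptor gene Cd44 in T-like cells was 30.8 and 41.9 CPM (0.53, adjusted p = 0.592), Ptprc in NK-like cells differed by -0.19 (adjusted p = 0.380), Itgb1 by 0.33 in B-like and -0.56 in classical monocyte-like cells (adjusted p = 0.365 and 0.746) and Lamp2 by 0.57 in nonclassical monocyte-like cells (adjusted p = 0.265).

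Of 17 glycan enzymes, which build the branched and poly-lactosamine chains that galectins bind or cap them with sialic acid, 3 to 14 were tested in a class and 0 passed in any. In B-like cells 2 of 14 had a positive change, with a median of -0.18 beside 0.01 for all genes. C1galt1, the enzyme that starts core-1 O-glycans, was 42.8 and 27.2 CPM there (log2 change -0.64, SE 0.16, adjusted p = 0.0598). Mgat5, which makes the N-glycan branch favoured by galectins, differed by -0.42 in NK-like cells (adjusted p = 0.527), and the sialyltransferase genes St6gal1 by 0.27 in T-like (adjusted p = 0.812) and St3gal6 by -0.72 in macrophage-like cells (adjusted p = 0.504). Mgat2 differed by 0.86 in classical and 0.49 in nonclassical monocyte-like cells (adjusted p = 0.680 and 0.540).

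Of 16 genes of the response to damaged lysosomes, 14 were tested in B-like, 12 in NK-like, 12 in T-like, 8 in macrophage-like, 6 in classical and 7 in nonclassical monocyte-like cells. Chmp4b, an ESCRT-III subunit that seals membranes, fell in B-like cells, with means of 99.5 CPM in sham and 70.5 in DOCA-salt animals (log2 change -0.46, adjusted p = 0.0118, SE 0.09), and was the 1 gene of the list to pass. It was 235 and 177 CPM in NK-like cells (-0.43, adjusted p = 0.0857) and 178 and 132 CPM in T-like cells (-0.43, adjusted p = 0.221). The autophagy receptor gene Sqstm1 differed by 0.55 in nonclassical and -0.43 in classical monocyte-like cells (adjusted p = 0.156 and 0.871), and the lysosomal channel gene Mcoln1 by -0.55 in macrophage-like cells (adjusted p = 0.610).

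Of the 8 myeloid transcripts, Lyz2 and Apoe rose in B-like cells (7 of 8 tested positive, median 0.44) and in NK-like cells (5 of 6, median 0.29), as given above. In T-like cells 0 of 7 were positive and the median was -0.52, with 0 past the threshold and C1qa at 120 and 58.6 CPM (log2 change -0.92, adjusted p = 0.317). Apoe also rose in nonclassical monocyte-like cells, from 2283 to 3918 CPM (0.77, adjusted p = 0.0113). It differed by 0.75 in macrophage-like (adjusted p = 0.0692) and by 1.09 in classical monocyte-like cells (adjusted p = 0.633).

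Across 54 profiles of a class in a mouse (10 classes, at least 20 cells each), the genes most like each member among 5302 were ranked by Pearson's r of log2(CPM + 10), given as a description since profiles share mice and libraries. Lgals3 was most like Ifitm3 (0.93), Mpeg1 (0.91) and Ifitm2 (0.91), and Lgals1 most like S100a13, Epsti1 and Dok2 (0.90 each). Among the genes most like Lgals3bp were Bcl2l1 (0.82) and Slc9a9 (0.81). The tandem-repeat galectins had weaker neighbours: Pld3 (0.72), Mxd4 (0.66) and Prkacb (0.62) for Lgals9, and Sbds (0.72), Dennd6a (0.67) and Irak2 (0.64) for Lgals8.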

How the data were processed

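The deposited values are raw UMI counts per gene or antibody and cell barcode, made by the authors with Cell Ranger 3.1.0 per the file headers; Seurat 4 and the mm10 build are named in the submitters' processing notes, and the annotation is not given in the sources used here. The filter on cells asked for 200 or more genes and no more than 10% mitochondrial UMIs, starting from 4359 sham and 7600 DOCA-salt barcodes. Scrublet's doublets (53 and 243 cells) and cells whose leading hashtag was not at least 2 times the next (136 and 321) were left out. Scanpy 1.11.5 clustered both libraries together (2000 variable genes without the 5 members and Lyz2, 30 components, Leiden resolution 1), and a cluster was named from at least 3 detected markers.

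UMIs were summed per class and mouse and fitted over all genes with edgeR 4.0.16 (filterByExpr, TMM scaling, quasi-likelihood test, Benjamini-Hochberg adjustment, threshold 0.05), checked on simulated counts. The fit was run in 6 named classes of all 8 mice. Neutrophil-like and cDC2-like cells, with 1 to 7 and 2 to 11 cells in a sham mouse, and the unnamed clusters are described by their levels. The labels call the 4 hashtagged samples of a group biological replicates, and all 4 shared a library, so library and group cannot be told apart. The members and all gene lists were chosen with earlier results of these data known. The text names the members, up to 4 genes past the threshold per list and class (where none passed, the largest change among genes averaging 20 CPM or more), and the 3 genes most like each member, of which 1 is not reported here; cluster subsets were picked after their values were seen.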

Additional observations from a re-analysis of the deposited data

Results flagged for a closer look

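In 68 groups of 4 mice, each member's CPM by class and the Lgals3 to Lyz2 ratio were searched for a mouse far from the other 3 (Dixon's gap over range above its 95% critical value), which chance gives in about 1 of 20 groups, and 4 were found. Lgals3bp in macrophage-like cells of sham mouse 2 was 274.5 CPM (86 UMIs in 90 cells), against 206.4 to 216.3 CPM in the other sham mice. Lgals8 in nonclassical monocyte-like cells of DOCA-salt mouse 4 was 68.63 CPM, resting on 13 UMIs in 39 cells, against 12.39 to 19.98 CPM. The T-like cells of sham mouse 4 held 59.31 Lgals3 UMIs per 100 Lyz2 UMIs, against 19.12 to 25.9 in the other sham mice, and this mouse also had the highest Lgals1 of the T-like class (1414 CPM). The T-like cells of DOCA-salt mouse 3 held 53.64, against 29.92 to 33.39.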

How the results depend on the processing

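Of 512 values of the members' log2 changes under the alternatives, 453 kept their direction, and 23 moved by more than the spread between mice. Genes past the threshold numbered 169 in B-like, 65 in NK-like, 25 in T-like, 14 in macrophage-like, 1 in classical and 31 in nonclassical monocyte-like cells. Without a low-count filter they were 297, 126, 132, 159 and 27 in the first 5, with DESeq2 112 in B-like and 4 in classical monocyte-like cells, and without lymphocytes that held a C1qa, C1qb, C1qc or Apoe UMI 31, 20 and 1 in B-like, NK-like and T-like cells. With each library clustered on its own T-like cells gave 70 and macrophage-like cells 43; with surface antibody classes, chosen after seeing the data, NK-like cells gave 37 and macrophage-like cells 3. A hashtag margin of 5 gave 2 and leaving out mice with under 10 cells 4 in classical monocyte-like cells, 500 genes with 5% mitochondrial UMIs gave 8 in macrophage-like cells, and Leiden resolution 0.5 gave 204 in nonclassical monocyte-like cells. Outside the Sox4-holding cluster B-like cells gave 106, and outside the Cxcr3-led cluster T-like cells gave 115 (both chosen after seeing the data). Leaving out 1 mouse gave 81 to 170, 31 to 68, 17 to 32, 5 to 20, 1 to 3 and 15 to 39 genes.

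Members past the threshold fell from 1 to 0 in B-like cells with each library clustered on its own or without cells with a macrophage UMI, and in NK-like cells with antibody classes. They numbered 1 in T-like cells outside the Cxcr3-led cluster, 2 in macrophage-like cells without a filter and 1 with libraries clustered apart, and 1 in nonclassical monocyte-like cells without a filter, with a margin of 5, with doublets kept, with 500 genes and 5%, or at resolution 0.5; leaving out 1 mouse gave 0 to 1 in B-like and in nonclassical monocyte-like cells. List genes past the threshold were 3 in B-like cells (5 without a filter, 1 at resolution 2, 6 with libraries apart, 1 without macrophage-UMI cells), 2 in NK-like cells (1 at margin 5, resolution 2 and without macrophage-UMI cells, 0 with antibody classes), 0 in T-like cells (3 without a filter, 2 outside the Cxcr3-led cluster), 0 in macrophage-like cells (1 without scaling, with DESeq2 and at margin 5, 2 without a filter), 0 in classical monocyte-like cells (1 without a filter) and 1 in nonclassical ones (7 at resolution 0.5). Leaving out 1 mouse gave 3 to 4 in B-like cells, and 0 to 1 for each of T-like, macrophage-like and classical monocyte-like.

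The ratio of NK-like to B-like cells was 0.25 with antibody classes, and that of T-like cells -0.61 outside the Cxcr3-led cluster; leaving out 1 mouse gave 0.67 to 0.85, 1.28 to 1.51 and -2.03 to -1.62 for NK-like, T-like and macrophage-like cells. The galectin-3 antibody difference, near 0 in lymphocytes, turned as raw UMIs to -0.32 (B-like), -0.16 (NK-like), -0.28 (T-like), -0.028 (classical) and 0.076 (nonclassical monocyte-like), and with antibody classes to -0.000184, -0.019 and -0.052 in B-like, NK-like and T-like cells. Leaving out 1 mouse gave -0.045 to 0.11 (B-like), -0.065 to 0.063 (NK-like), -0.051 to 0.057 (T-like), 0.25 to 0.62 (macrophage-like) and -0.10 to 0.095 (nonclassical monocyte-like). In nonclassical monocyte-like cells Lgals3 changed by -0.36 and in macrophage-like cells by 1.47 with each library clustered on its own, and T-like Lgals1 by 0.80 with antibody classes. The causes were not tested.

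The number of cells limits the classical monocyte, neutrophil and dendritic classes most, with 13 to 29 sham cells each. No paired analysis was possible because hashtag numbers do not link a sham mouse to a DOCA-salt mouse.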

Other observations

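The unnamed cluster led by Cbr2 and Folr2 held B-cell and macrophage markers together and entered no comparison. It had 74.1, 69.7, 101 and 89.6 CPM of Lgals3 in sham and 955, 227, 212 and 199 CPM in DOCA-salt mice, without overlap. The share of all genes without overlap was not counted in this cluster, so nothing is read from that. Lyz2 averaged 2288 CPM in its sham and 4824 CPM in its DOCA-salt cells, with overlap of the mice, and the part of macrophage RNA was not tested. DOCA-salt mouse 1 stood apart there in several genes at once, with 1274 CPM of Lgals1 (260 to 511 in the other DOCA-salt mice), 148 of Lgals3bp (23.6 to 64.8), 221 of Lgals9 (87.9 to 106) and 9382 of Lyz2 (2230 to 4570).

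The cluster led by Cd163l1 and Tcrg-V6, whose cells carried 32.4-fold more of the gamma-delta T-cell receptor antibody than B-like cells of the same mouse (3 mice), held 83.2 Lgals3 UMIs per 100 Lyz2 UMIs, and its sham cells numbered 6. The cDC2-like cells held 198 in sham and 114 in DOCA-salt mice, the highest ratios among the named classes, from 236 and 1009 Lgals3 UMIs. Only the DOCA-salt value includes the 14 Fscn1-led cells, which held 103 CPM of Lgals3 and 584 of Lyz2. The Cd209a-led cells held 1016 and 781 CPM.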
